A study of Daphnia magna with 48 samples.

Results

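Water fleas (Daphnia magna, a small planktonic crustacean of fresh water) that had spent 2 days in a mixture of copper and arsenic were compared with unexposed animals of the same day. The libraries were chosen by their labels: 4 mixture libraries and 4 control libraries of day 2, 8 of the 48 in the series. Whole bodies were profiled by RNA sequencing of total RNA. The other libraries used here are the copper and the arsenic libraries of day 2, and the same 4 treatments on days 1 and 4, with 4 libraries in each of 12 groups. All groups came from a field population kept in a defined culture medium and fed daily. The labels state neither the metal doses nor the age of the animals, nor how many animals went into a library. They do not tie the 4 libraries of a group to separate cultures either. Every p-value therefore measures library-to-library spread alone, and that spread may be technical.

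Copper is an essential cofactor of respiratory and antioxidant enzymes, but free copper in excess generates reactive oxygen species and displaces other metals from proteins. Arsenic binds pairs of protein thiols in its trivalent form and imitates phosphate in its pentavalent form. Animals meet both with metal-binding metallothioneins, glutathione and protein chaperones. In daphnids, growth, moulting of the cuticle and the production of a brood follow each other in a cycle of a few days, so the RNA content of a whole animal changes with time even without exposure. The identifiers of the deposited table carry no gene names, and 0 of them matched the reference gene table. Pathways and tissue markers could not be looked up, the whole-body label could not be checked against markers, and genes are described by identifier, level and behaviour.

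The 4 mixture libraries held 13.3, 9.24, 7.93 and 20.1 M counts (M, mega; replicates 1 to 4), and the 4 controls held 16.1, 16.4, 13.2 and 10.8 M. Mixture replicates 3 and 4 were the shallowest and the deepest of the series. Of the 15813 tested genes, 78, 128, 83 and 35 had no count in the mixture libraries, against 27, 25, 27 and 56 in the controls. On the first principal component of the 16 libraries of day 2, which held 16.6% of their variance, the mixture libraries lay at 49.2, 47.4, 13.3 and 0.0378 and the controls at −3.46, −3.81, −28.0 and −25.2. The mixture and control libraries did not overlap there, but mixture replicates 1 and 2 stood far from replicates 3 and 4. Control replicates 1 and 2 likewise lay above control replicates 3 and 4. Copper libraries ran from −29.5 to 17.8 and arsenic libraries from −7.94 to −2.24 on the same axis.

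After 2 days the mixture differed from control in 23 genes, of which 22 were lower in the mixture and 1 was higher (edgeR quasi-likelihood test, Benjamini-Hochberg adjusted p under 0.05). These are 0.145% of the genes tested, 0.139% as lower and 0.00632% as higher. For those 22 genes the log2 fold changes ran from −2.36 to −0.60 with a median of −1.52, and 17 of them were lower by more than 2-fold. Their mean control levels ran from 3.81 to 323 CPM (counts relative to the library total after scaling). The median was 56.7 CPM, against a median of 13.9 CPM over all tested genes. The same controls chose the genes, so this contrast is partly set by the choice. In a whole-body sample, fewer cells of a kind and less RNA per cell cannot be told apart. Without mixture replicate 1 or 2, or without control replicate 3, 2 genes were called. Without control replicate 1 or 4 the count was 14 or 11, and without mixture replicate 3 or 4 it was 38 or 36. With mixture replicates 1 and 2 both left out, 0 genes passed in edgeR and 585 of the 15813 tested genes had an unadjusted p under 0.05.

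**Figure D1:**
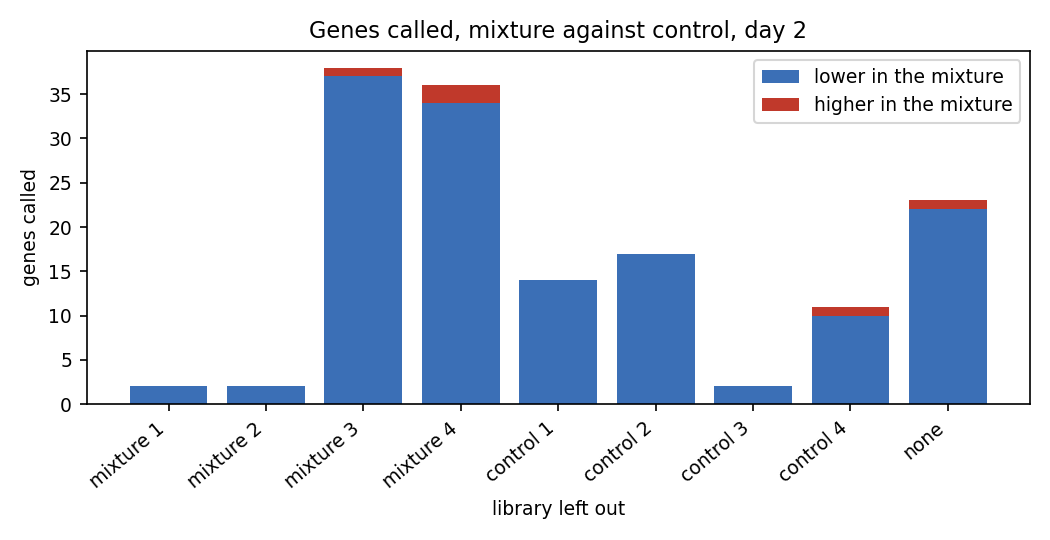
Number of genes called for mixture against control on day 2 (vertical axis) when 1 of the 8 libraries was left out (horizontal axis, the full set at the right), split into genes lower and genes higher in the mixture. The count fell to 2 without mixture replicate 1, mixture replicate 2 or control replicate 3, and reached 38 without mixture replicate 3.

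For each of the 22 lower genes all 4 mixture libraries lay below all 4 controls. The same held for 600 of the 15813 tested genes (3.79%), while 635 (4.02%) had all mixture libraries above all controls. Genes without overlap were thus about as often higher as lower, although the calls were nearly all lower. At an unadjusted p under 0.05 there were 768 higher genes (4.86%) and 969 lower genes (6.13%), and 385 of these 1737 genes differed by more than 2-fold.

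The smallest p belonged to Dapma7bEVm001964t1, an abundant transcript without a name. It stood at 144, 161, 115 and 131 CPM in the mixture libraries, against 310.3, 318, 361 and 304 CPM in the controls. The lowest control was thus well above the highest mixture library, and the gene was 2.34-fold lower (log2 fold change −1.23, SE 0.21, adjusted p 0.0111). With copper alone it was at 98.2, 224, 159 and 139.7 CPM, and with arsenic alone at 269, 405, 278 and 144 CPM. Copper libraries surrounded the mixture levels, and 3 of 4 arsenic libraries were above them. The mixture differed from arsenic (log2 fold change −0.99, SE 0.21, adjusted p 0.0370) but not detectably from copper (−0.17, 95% interval −0.59 to 0.25). Copper against control gave −1.06 (95% interval −1.48 to −0.63), with an adjusted p of 0.151.

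Dapma7bEVm004192t1 showed the same order of treatments with a larger difference. Its levels were 13.7, 30.2, 24.4 and 17.9 CPM in the mixture libraries and 97.3, 86.5, 79.7 and 76.1 CPM in the controls. The fall was 3.97-fold (log2 fold change −1.99, SE 0.35, adjusted p 0.0117). Copper libraries held 19.0, 58.3, 17.4 and 21.2 CPM, so that 3 of the 4 were in the range of the mixture. Arsenic libraries were spread widely, at 59.9, 119, 90.1 and 14.8 CPM. Arsenic replicate 4 was as low as the mixture for this gene and for Dapma7bEVm001964t1. The log2 fold change against arsenic was −1.73 (SE 0.35, adjusted p 0.0344), whereas that against copper was −0.43 (95% interval −1.14 to 0.27).

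Dapma7bEVm006966t1 was the single gene called as higher. It had 33.0, 32.5, 33.3 and 31.7 CPM in the mixture libraries, a narrow range, against 20.8, 23.1, 23.5 and 24.8 CPM in the controls. The rise was 1.42-fold (log2 fold change 0.50, SE 0.10, adjusted p 0.0239). Copper libraries lay from 24.4 to 26.3 CPM and arsenic libraries from 22.3 to 30.0 CPM, so the 4 mixture libraries were above all 12 other libraries of the day. Over all tested genes, 45 (0.285%) were above all 12 in this way. On day 1 its level was 27.1 ± 2.79 CPM with the mixture and 29.2 ± 2.88 CPM in controls (SD, n = 4 each). On day 4 the means were 21.4 ± 1.49 CPM with the mixture and 22.7 ± 0.524 CPM in controls. Without mixture replicate 1 its log2 fold change was 0.48 with an adjusted p of 0.176, and it passed the threshold in 8 of 17 alternatives (adjusted p from 0.00377 to 0.797).

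**Figure D2:**
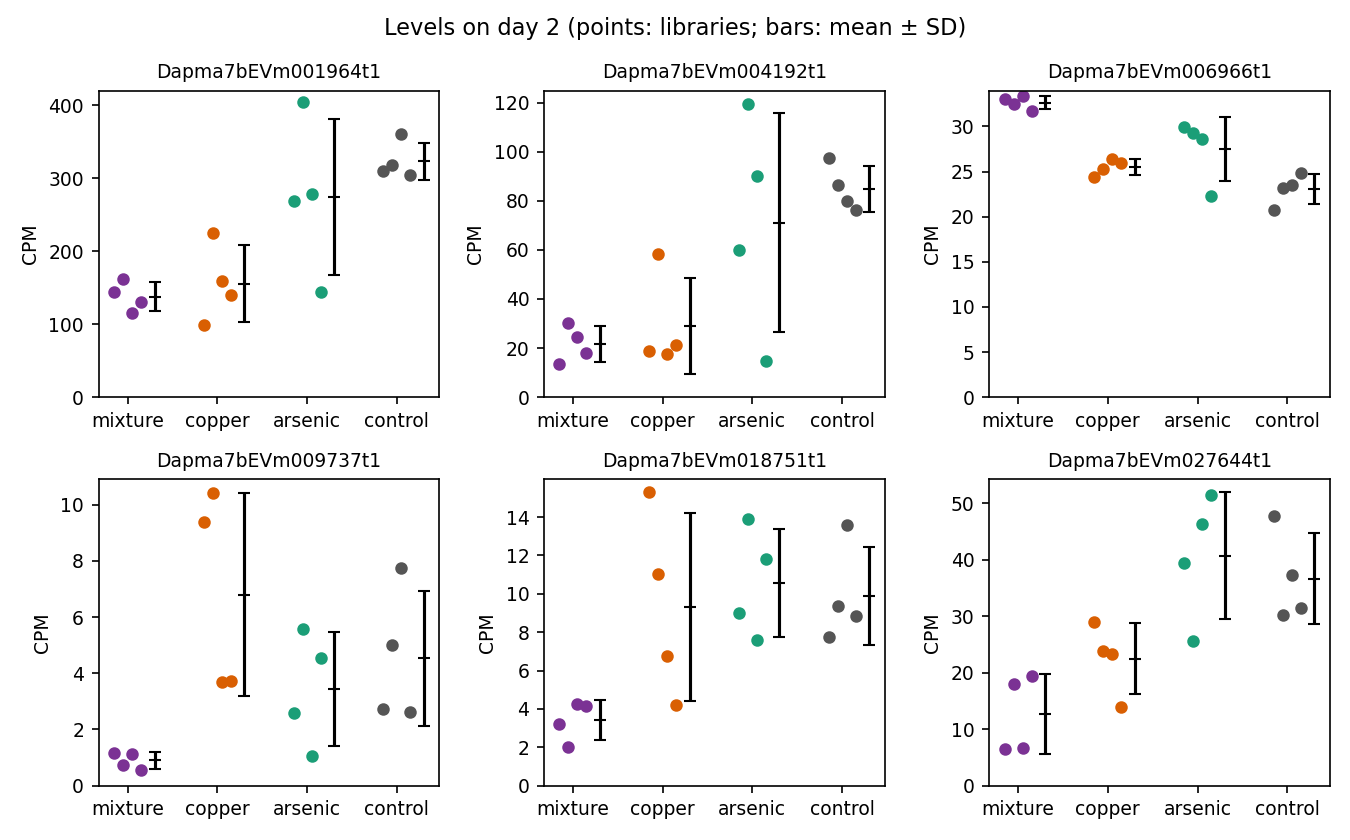
Levels in CPM (vertical axis, from 0) of 6 named genes in the 16 libraries of day 2, by treatment; points are libraries, and bars are mean ± SD of 4. Dapma7bEVm001964t1 and Dapma7bEVm004192t1 were as low with copper as with the mixture in most libraries, whereas Dapma7bEVm009737t1 and Dapma7bEVm018751t1 were lower in the mixture than in either metal alone on average.

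Across the 22 lower genes, the single-metal sums lay between those of the mixture and the controls. Summed over these genes, the 4 mixture libraries held 738, 737, 879 and 869.8 CPM. The sums were 1075 to 1427 CPM with copper, 1406 to 1584 CPM with arsenic and 1699 to 1976 CPM in controls. The lowest of the 44 libraries outside the mixture of day 2 was copper replicate 4 of day 2, at 1075 CPM, and the 32 libraries of days 1 and 4 ranged from 1310 to 2465 CPM. The genes had been chosen for the gap between mixture and control, so these sums are a description. The 6 genes with control means over 100 CPM weigh most in the sums. The mean with copper was below the control mean in 21 of the 22 genes and the mean with arsenic in 18, but both comparisons use the same controls that chose the genes. Neither metal alone gave a called gene on day 2 in the main edgeR fit. The alternative settings were not run for copper or arsenic against control. In edgeR the unadjusted p was under 0.05 for 265 genes with copper (1.68% of those tested) and for 576 with arsenic (3.64%). Both shares are below the 1 in 20 that would pass with no difference.

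**Figure D3:**
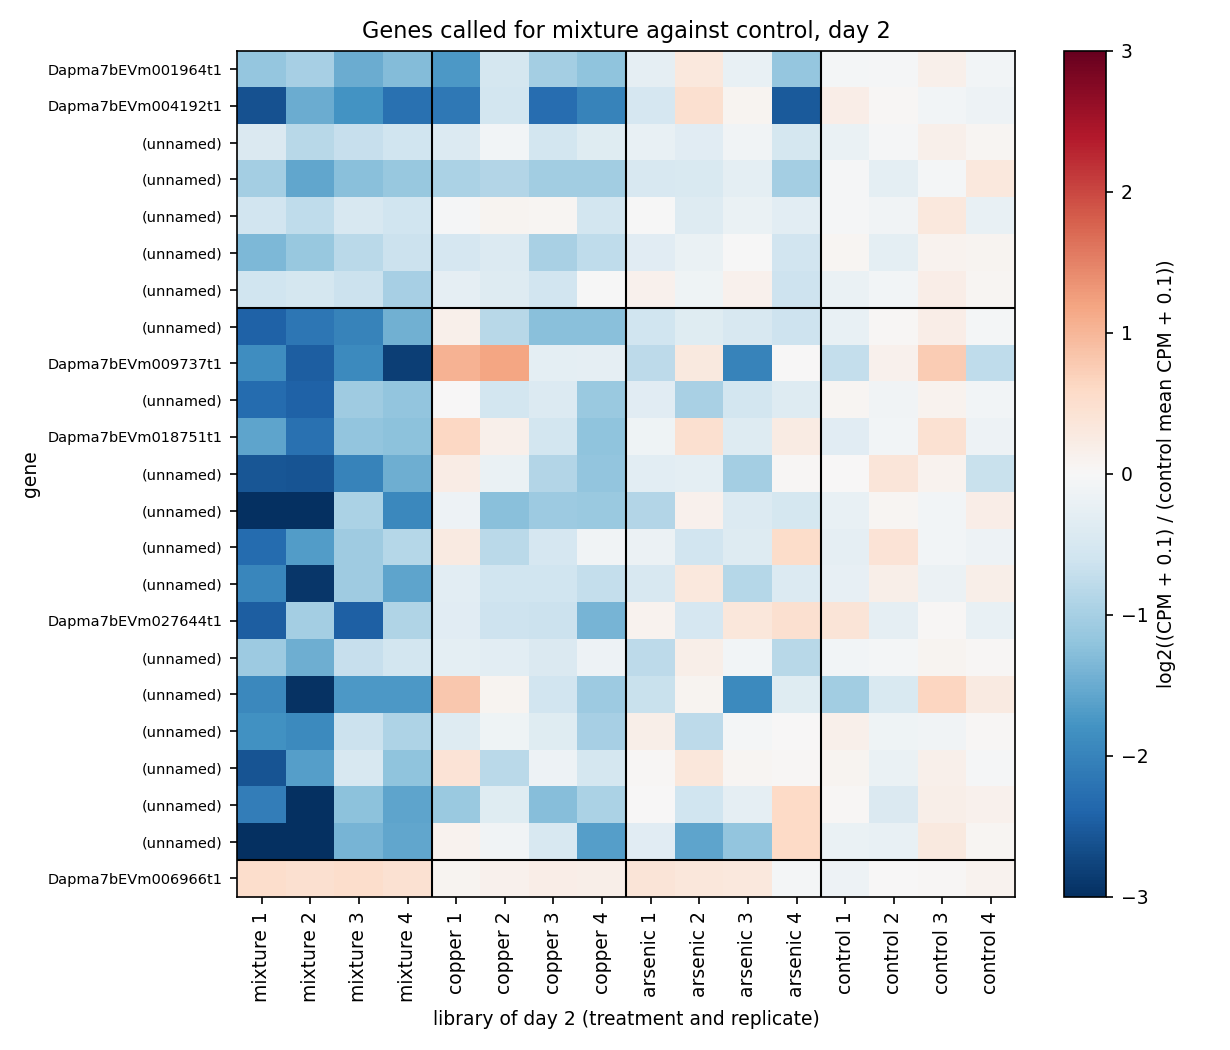
Log2 ratio of the CPM in each library of day 2 to the control mean, with 0.1 CPM added to both (colour, limits −3 and 3), for the 23 called genes (rows) in the mixture, copper, arsenic and control libraries (columns). Horizontal lines separate 7 lower genes with a mean difference above 0 between days 2 and 1 in the single-metal libraries, 15 lower genes with one below 0, and the 1 higher gene. The mixture library with the lowest level differed among the 15 genes, and several of the 7 were low in copper libraries too.

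Against both single metals together, the mixture was lower in 3 genes and higher in 0 (0.019% of tested genes called). At an unadjusted p under 0.05, 4.7% of all tested genes were higher and 5.67% lower in the mixture. Dapma7bEVm009737t1 had 1.17, 0.740 and 1.13 CPM in mixture replicates 1 to 3 and 0.558 CPM in replicate 4, which rested on 16, 7, 9 and 11 counts. Copper libraries held 9.39, 10.4, 3.68 and 3.72 CPM, arsenic libraries 2.57, 5.57, 1.05 and 4.55 CPM, and controls 2.74, 4.996, 7.76 and 2.63 CPM. All copper and control libraries were above the mixture, but arsenic replicate 3 fell within it. The log2 fold change against the mean of the metals was −2.45 (SE 0.43, adjusted p 0.0158), and against copper alone it was −2.94 (SE 0.46, adjusted p 0.00207). It was the single gene called against copper (0.00632%). Against control it was 5.15-fold lower (−2.36, SE 0.46, adjusted p 0.0172).

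Dapma7bEVm018751t1 had 3.22, 2.01, 4.28 and 4.16 CPM in the mixture libraries. It had 15.3, 11.0, 6.74 and 4.20 CPM with copper, 8.998, 13.9, 7.57 and 11.8 CPM with arsenic, and 7.73, 9.34, 13.6 and 8.86 CPM in controls. Only copper replicate 4 reached down to the mixture range among these 12 libraries. Its log2 fold change was −1.52 against the mean of the metals (SE 0.28, adjusted p 0.0158) and −1.62 against arsenic (SE 0.30, adjusted p 0.0343). Against copper alone it was −1.43 (95% interval −2.05 to −0.81), with an adjusted p of 0.101. In contrast to Dapma7bEVm001964t1, this gene was at 9.32 ± 4.89 CPM with copper, close to the 9.88 ± 2.56 CPM of controls (SD, n = 4 each).

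The number of calls against both metals depended on which libraries entered. Leaving out mixture replicate 1 or 2 brought the edgeR count to 0, where 977 and 1276 genes had an unadjusted p below 0.05. The fold changes moved little in these fits. Dapma7bEVm009737t1 was at −2.65 without mixture replicate 1 and −2.38 without replicate 2, and Dapma7bEVm018751t1 at −1.50 and −1.35. The count was 1 without copper replicate 1 and 5 without copper replicate 2. It was 9 without copper replicate 3, 16 without copper replicate 4 and 15 without arsenic replicate 3. It reached 23 without mixture replicate 3 and 20 without mixture replicate 4. For the mixture against copper alone, the 1 call became 2 when copper replicate 3 or mixture replicate 4 was left out. It became 8 when copper replicate 4 was left out and 9 when mixture replicate 3 was.

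Against arsenic alone the mixture was lower in 13 genes (0.0822% of those tested) and higher in 1 (0.00632%), together 0.0885%. Dapma7bEVm027644t1 was among the lower ones. Its levels were 6.52, 18.0, 6.67 and 19.5 CPM in the mixture libraries, 39.4, 25.6, 46.4 and 51.5 CPM with arsenic, and 47.7, 30.2, 37.3 and 31.4 CPM in controls. Every arsenic and control library was above every mixture library, while mixture replicates 2 and 4 overlapped the copper range of 13.9 to 28.9 CPM. The log2 fold change was −1.67 against arsenic (SE 0.33, adjusted p 0.0343), −0.81 against copper (95% interval −1.47 to −0.15, adjusted p 0.529) and −1.52 against control (SE 0.32, adjusted p 0.0337).

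Dapma7bEVm001465t1 was the gene higher in the mixture than with arsenic. It had 19.1, 14.5, 17.0 and 22.6 CPM in the mixture libraries, against 11.4, 6.62, 9.18 and 11.5 CPM with arsenic (log2 fold change 0.92, SE 0.18, adjusted p 0.0343). Controls held 18.9, 17.0, 14.0 and 12.4 CPM, a range that overlapped the mixture (0.23, adjusted p 0.641). The calls against arsenic numbered 0 without arsenic replicate 1 or mixture replicate 1, where 1367 and 992 genes had an unadjusted p below 0.05. There was 1 call without arsenic replicate 2 or mixture replicate 2, 36 without mixture replicate 3 and 28 without mixture replicate 4.

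Of the 22 genes lower than in control, 6 were also called against arsenic, 1 against copper and 2 against the mean of both. At an unadjusted p under 0.05, 22 were lower against arsenic and 18 against copper, where 5.31% and 4.71% of all tested genes were lower and 4.07% and 2.8% higher. These comparisons share the mixture libraries that chose the genes, and nothing is read from the shares. All 4 mixture libraries were below all 8 single-metal libraries in 4 of the 22 genes. Over all tested genes this was so in 85 (0.538%). The same 4 genes were also below the controls, and 46 of all tested genes (0.291%) were below all 12 other libraries of the day.

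The 22 lower genes were sorted by the sign of their difference between days 1 and 2. The copper and arsenic libraries, which the comparison of mixture with control does not use, gave that sign. In those libraries the log2 difference was above 0 in 7 of the 22 and below 0 in 15. Over all tested genes it was above 0 in 46.3%. Of the 22 genes, 5 passed the test as higher on day 2 and 6 as lower, where 3.93% and 2.34% of all tested genes did. The same difference gave the sign and the test, so each set could pass in its own direction only. The other 11 passed in neither direction, so the sets are a division by sign. Dapma7bEVm004192t1 was among the 7 and passed, at 0.96 (SE 0.24). Dapma7bEVm001964t1 was placed with the 7 by a difference of 0.07 (SE 0.15, adjusted p 0.855), which is no detectable change. Dapma7bEVm009737t1, Dapma7bEVm018751t1 and Dapma7bEVm027644t1 were among the 15 and passed. All 22 genes had been chosen for day-2 mixture libraries below day-2 controls, so comparisons of day 2 with the other days within mixture or control reuse the libraries that chose them. The values by day that follow are descriptions, with no test.

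In the 7 genes with a difference above 0, the control means of day 2 were above those of day 1 in 7 and above those of day 4 in 5. The mixture means of day 2 were below those of day 1 in 6 of 7. Dapma7bEVm004192t1 had mixture means of 27.1 ± 6.40, 21.6 ± 7.27 and 39.97 ± 8.21 CPM on days 1, 2 and 4. Its control means were 20.7 ± 2.96, 84.9 ± 9.35 and 50.4 ± 6.54 CPM (SD, n = 4 each). Over the 7 genes the median log2 ratio of day 2 to day 1 was −0.14 in the mixture and 0.71 in controls. The median log2 fold change against control on day 2 was −0.96 for the mixture, −0.65 for copper and −0.26 for arsenic, all with the same controls.

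In the other 15 genes the mixture means of day 2 were below those of day 1 and of day 4 in 15 of 15. The control means of day 2 were above those of day 1 in 5 of the 15 and above those of day 4 in 3. The median log2 ratio of day 2 was −2.05 to day 1 and −2.02 to day 4 in the mixture. In controls these medians were −0.25 and −0.30. Dapma7bEVm018751t1 had mixture means of 16.7 ± 6.08, 3.42 ± 1.05 and 9.54 ± 1.66 CPM on days 1, 2 and 4, against 12.4 ± 2.81, 9.88 ± 2.56 and 10.3 ± 3.75 CPM in controls (SD, n = 4 each). Dapma7bEVm027644t1 had 52.6 ± 11.4, 12.7 ± 7.03 and 26.1 ± 5.30 CPM in the mixture, against 45.9 ± 13.8, 36.6 ± 8.01 and 43.5 ± 9.90 CPM in controls. The median log2 fold change of the 15 genes against control on day 2 was −1.77 for the mixture, −0.41 for copper and −0.31 for arsenic.

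**Figure D4:**
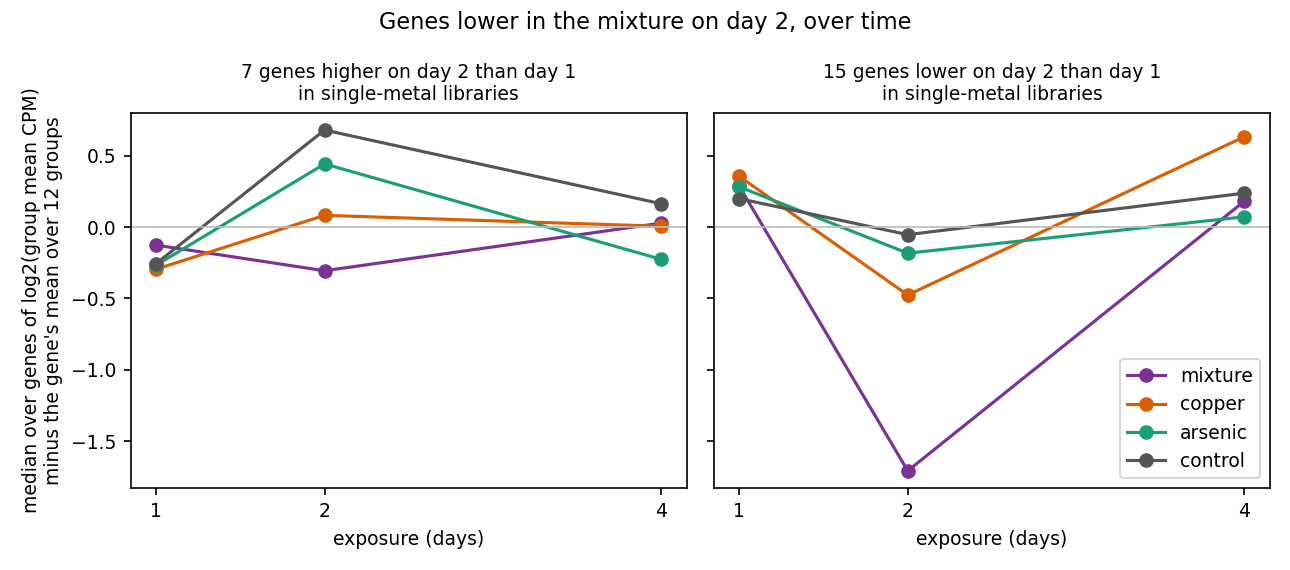
Median over genes of the log2 group mean CPM, relative to each gene's mean over the 12 groups (vertical axis), on days 1, 2 and 4 (horizontal axis) for the 4 treatments; left, 7 lower genes with a day 2 minus day 1 difference above 0 in single-metal libraries, right, the other 15. The genes were chosen for the gap between mixture and control on day 2. On day 2 the 15 genes stood at −1.71 in the mixture and −0.05 in controls, and the 7 genes at −0.31 in the mixture and 0.68 in controls.

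Variation among libraries of the same group was compared within and between the 2 sets. After each group's mean was removed, pairs of genes were correlated over the 40 libraries that the comparison of mixture with control does not use. The median Pearson r was 0.33 for the 21 pairs within the 7 genes and 0.36 for the 105 pairs within the 15 genes (median Spearman rho 0.30 and 0.35). Between the 2 sets the median r was −0.01 over 105 pairs, and over all pairs of tested genes it was −0.001. All pairs share the same libraries and depths. Removing group means does not remove differences that recur by replicate number. On day 1 the sums over the 22 genes in replicate 4 were 1341, 1327, 1370 and 1359 CPM (control, copper, arsenic and mixture). In replicate 2 they were 1840, 1963, 1493 and 1791 CPM. The part of such differences in r was not tested, and the correlations are descriptive.

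None of the 22 genes was called for mixture against control on day 1 or day 4 (edgeR), and 1 and 3 of them had an unadjusted p under 0.05 on those days. The median log2 fold change of the 22 genes, mixture against control, was 0.14 on day 1 and −0.11 on day 4, where all tested genes had medians of −0.00 and −0.01. Single genes ran from −0.55 to 0.63 on day 1 and from −0.82 to 0.46 on day 4. On day 1, 6 of the 22 were below 0, and on day 4, 15 were. These 2 days use other mixture and control libraries than day 2.

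Whether the mixture's effect itself differed between days was tested over all genes. Day 2 against day 1 gave 2 genes (0.0126%), both with a lower effect on day 2, and neither was among the 22. For the 22 genes the smallest adjusted p was 0.0835 against day 1 and 0.408 against day 4, so a difference between days did not pass the test for any of them. Dapma7bEVm002921t1 had 58.7, 52.9, 98.8 and 81.8 CPM in the mixture libraries of day 2, against 130.1, 122, 142 and 97.0 CPM in the controls of that day. Control replicate 4 fell just inside the mixture range, and the log2 fold change was −0.75 (SE 0.23, adjusted p 0.189). On day 1 the order was the other way round, with 209, 271, 246 and 293 CPM in the mixture libraries and 97.9, 129, 96.5 and 70.2 CPM in the controls. The difference of the effects, day 2 minus day 1, was −2.12 (log2; SE 0.32, adjusted p 8.17e-04). With arsenic alone the day-1 mean was 182 ± 42.5 CPM, and with copper alone 106 ± 25.3 CPM (SD, n = 4 each). By day 4 the mixture stood at 159 ± 37.3 CPM and the controls at 111 ± 19.6 CPM (SD, n = 4 each).

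Dapma7bEVm000727t1 was the other gene, with an effect on day 2 that differed from that on day 1 by −1.08 (SE 0.19, adjusted p 0.00875). It held 184, 144, 202 and 169 CPM in the mixture libraries of day 2 and 196, 225, 185 and 199 CPM in the controls, so that these groups overlapped. On day 1 it had 211, 238, 239 and 225 CPM in the mixture libraries, all above the controls at 119, 136, 121 and 121 CPM. From day 1 to day 2 the mean of this gene rose from 124 to 201 CPM in controls and fell from 228 to 175 CPM in the mixture. On day 4 the means were 225 ± 49.0 CPM with the mixture and 153 ± 20.6 CPM in controls (SD, n = 4 each). With arsenic alone the day-1 mean was 193 ± 39.9 CPM, and with copper alone 138 ± 15.1 CPM. Without mixture replicate 2 of day 2, 1 gene was called, and without mixture replicate 3 or 4 of day 2 there were 13 or 4. Without mixture replicate 1 of day 1 there were 23. Day 2 against day 4 gave no call in edgeR (0 genes), and 864 genes (5.46% of those tested) had an unadjusted p below 0.05. DESeq2 and limma called 0 as well, and leaving out mixture replicate 1 of day 4 gave 1.

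In longer gene lists, which include some of the called genes, the mixture's profile on day 2 ran against the later time course. Genes were sorted by their change from day 2 to day 4 in the copper and arsenic libraries, which share no library with the comparison. Of the 468 genes called higher on day 4 there (2.96% of those tested), 82.3% had a log2 fold change below 0 for mixture against control on day 2, with a median of −0.29. Of the 430 genes called lower on day 4 (2.72% of those tested), 20% were below 0, with a median of 0.13. Over all 15813 tested genes 50.6% were below 0 and the median was −0.00. At an unadjusted p under 0.05, 33.3% of the first list were lower in the mixture and 1.28% higher, and 3.26% of the second were lower and 19.8% higher. Across all genes the 2 sets of log2 fold changes had a Pearson r of −0.27 and a Spearman rho of −0.29. Against the mean of copper and arsenic on day 2, the mixture had a median of −0.15 for the 468 genes, with 69.7% below 0. For the 430 genes that median was 0.02, with 42.3% below 0. This second comparison uses single-metal libraries that chose the lists. Genes are not independent replicates, and these values are a description.

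For mixture against control on the other days, the 468 genes had a median of 0.08 on day 1, with 36.1% below 0. On day 4 their median was −0.08, with 65.6% below 0, the same direction as on day 2. The 430 genes had medians of −0.06 on day 1, with 69.5% below 0, and −0.00 on day 4, with 50.2% below 0. The difference between days in these shares was not tested. On day 2 the 4 mixture libraries differed in how far they departed from the control mean. For the 468 genes the median log2 differences were −0.42, −0.51, −0.16 and −0.10 in mixture replicates 1 to 4, against −0.08 to 0.10 in the 4 controls. Replicates 1 and 2 departed most, as they did on the first principal component. Copper libraries ran from −0.25 to −0.05 and arsenic libraries from −0.34 to −0.04. Mixture replicates 3 and 4 lay within these values, which are partly fixed by the choice of genes. The copper and arsenic libraries of day 2 helped to choose the 468 genes as lower than on day 4. For the 430 genes, chosen the other way, mixture replicates 1 to 4 were at 0.21, 0.19, 0.02 and 0.09. Copper libraries ran there from 0.04 to 0.21 and arsenic libraries from 0.08 to 0.15.

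Change from day 1 to day 2 was less closely tied to the mixture. The 370 genes called lower on day 2 with the single metals had a median of −0.21 for mixture against control, with 75.4% below 0. The 621 genes called higher had a median of −0.08, with 63% below 0. Across all genes the Pearson r with the change from day 1 to day 2 was 0.06 and the Spearman rho 0.004. Of the 22 lower genes, 5 were in the list of 621 and 6 in the list of 370.

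**Figure D5:**
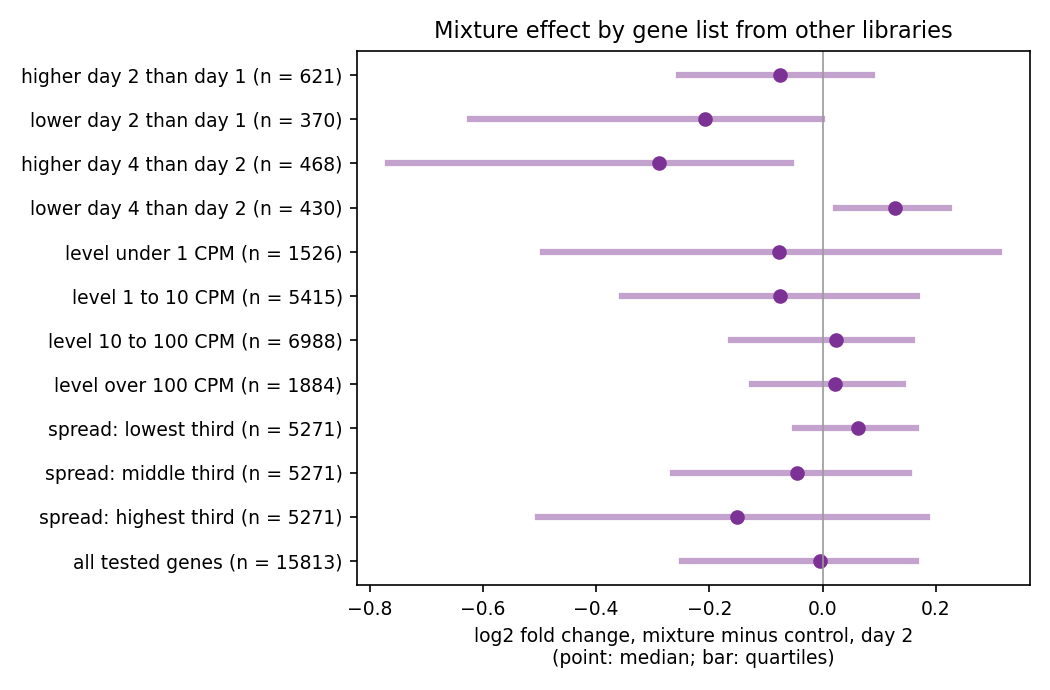
Log2 fold change of mixture against control on day 2 (horizontal axis; point, median; bar, lower to upper quartile) for gene lists made only from other libraries and for all tested genes (bottom). Genes higher on day 4 than on day 2 in single-metal libraries had a median of −0.29 and those lower on day 4 a median of 0.13, against −0.00 over all tested genes.

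For mixture against control, 4 genes were called on day 1 and 2 on day 4, so the genes of smallest p on those days were taken as lists, most of whose members passed no test. The 200 genes with the smallest p for mixture against control on day 1 comprised 94 higher and 106 lower ones, with day-2 medians of −0.04 and −0.12. Those of day 4 comprised 88 higher and 112 lower ones, with day-2 medians of 0.05 and −0.08. The 3 genes called higher and the 8 called lower with copper on day 4 had day-2 medians of 0.02 and 0.17 for the mixture, and none of these 11 was called or had an unadjusted p under 0.05 on day 2 (edgeR).

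Level and variability of a gene went with its direction. Among the 1884 genes with a mean over 100 CPM on days 1 and 4, 11.3% were higher and 7.11% lower in the mixture on day 2 at an unadjusted p under 0.05. Of the 5415 genes between 1 and 10 CPM, 1.83% were higher and 5.65% lower. Genes were also split into 3 equal sets of 5271 by their spread among copper and arsenic libraries of day 2. The least variable set had a median log2 fold change of 0.06, with 9.77% higher and 3.11% lower. In the most variable set the median was −0.15, with 1.71% higher and 8.44% lower. Of the 22 lower genes, 12 were in the most variable set, 9 in the middle set and 1 in the least variable, and Dapma7bEVm006966t1, the called higher gene, was in the least variable. The role of depth and gene variability in these shares was not tested.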

How the data were processed

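Per the file headers the deposited table holds 1 count per gene for each of 48 libraries, each column named as a library title. The submitters' processing notes name TopHat2 2.1.1, HTSeq and edgeR without role or order. No source used here names the genome build, the annotation or the strand setting (not given in the sources used here). The table is called normalised, but its values are whole numbers with totals from 7.93 to 20.1 M (mega), and were analysed as raw counts. Reads shared by near-identical or overlapping genes could not be marked.

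Genes with at least 14 counts (1 CPM at the median total) in at least 4 libraries were tested: 15813 of 16066. EdgeR 4.0.16 in R 4.3.3 was used with TMM factors, 1 model of 12 groups over 48 libraries (36 residual degrees of freedom), two-sided quasi-likelihood F tests and Benjamini-Hochberg adjustment within each of 6 comparisons. SE is the log2 fold change divided by the square root of F, and 95% intervals use it. The median SE for mixture against control on day 2 was 0.233. Fitted fold changes use a prior count of 0.125. Counting intervals would cover counting error only. The steps were tested on simulated counts.

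In each comparison the 2 called genes of smallest p per direction were named. Members and lists were chosen with earlier results of these data known. Alternatives were no filter, RLE factors, DESeq2 1.42.0, limma 3.58.1, fewer libraries, a replicate block and leaving out each library. Leaving out both mixture libraries highest on the first component was chosen after seeing the data. Over the 24 within-group pairs of day-2 libraries, chi-square divided by its degrees of freedom was at least 9.43, far above sampling noise. Each library was counted as 1 replicate, but these values cannot show whether the libraries came from separate cultures.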

Additional observations from a re-analysis of the deposited data

Results flagged for a closer look

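The mixture's effect differed between days 1 and 2 in Dapma7bEVm002921t1, by −2.12 on the log2 scale, and in Dapma7bEVm000727t1, by −1.08, both by a test of the difference itself. Without mixture replicates 1 and 2 of day 2 these differences were −1.82 (adjusted p 0.115) and −0.996 (adjusted p 0.287). Over 24 alternatives the adjusted p ran from 4.51e-07 to 0.115 for Dapma7bEVm002921t1 and from 2.89e-04 to 0.287 for Dapma7bEVm000727t1.

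Among 60 sets of 4 libraries on day 2, 5 had 1 library far from the other 3, where about 3 are expected by chance at 1 in 20. Copper replicate 2 stood apart for Dapma7bEVm004192t1, at 58.3 CPM against 17.4 to 21.2 CPM in the other copper libraries. The same library was low for Dapma7bEVm000727t1, at 157 CPM against 215 to 223.5 CPM. Arsenic replicate 1 had 111 tested genes without a count, and control replicate 4 had 56. On the second principal component of day 2, control replicate 1 lay at 2.46 and the other controls from −5.02 to −3.86. That gap is small on this axis, which ran from −46.4 (arsenic replicate 2) to 32.2 (mixture replicate 4).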

How the results depend on the processing

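The direction of mixture against control held for the 23 called genes in all 17 alternatives, but the number of calls did not. The 23 genes became 104 with DESeq2, 12 with limma, 3 when only the day-2 libraries were fitted and 5 when only the 8 libraries were. Leaving out single libraries gave 2 to 38. The 3 calls against both metals became 127 with DESeq2 and 5 with the replicate block (0 to 23 without single libraries). The 1 call against copper became 30 with DESeq2 (1 to 9), and the 14 against arsenic became 98 with DESeq2 and 2 with the day-2 libraries alone (0 to 36). The 2 genes that differed between days 2 and 1 became 30 with DESeq2 (1 to 23), and the 0 between days 2 and 4 stayed at 0 to 1. Limma called 0 genes against both metals (1555 at an unadjusted p below 0.05), 0 against copper (1073) and 0 against arsenic (1446). The day-2 libraries alone gave 0 against both metals and 0 against copper with edgeR, with 1815 and 1374 at an unadjusted p under 0.05. Without mixture replicates 1 and 2 of day 2, which leaves 2 mixture libraries, edgeR called 0 genes against control (585 at an unadjusted p below 0.05), both metals (648), copper (480), arsenic (723) and the effect of day 1 (671). No filter and RLE factors kept each count within 1.5 times. Same-numbered mixture and control libraries deviated together with r from 0.0758 to 0.171, and 2 of 4 correlated best with their own number. These values do not settle whether the number marks a pairing, and the main fit did not use it. With the replicate block, mixture against control had 16 calls, all lower. Otherwise the cause of these changes was not tested. Dapma7bEVm001964t1 was called in 15 of 17 alternatives (adjusted p from 2.71e-05 to 0.159) and Dapma7bEVm004192t1 in 14 (2.71e-05 to 0.408). Mixture replicate 3, with 7.93 M counts, limits the precision of low levels most.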
